A study of Mus musculus with 4 samples.

Results

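The 10 genes described here encode subunits of the Polycomb repressive complexes: Ezh2, Suz12, Eed, Rbbp4, Rbbp7 and Jarid2 of Polycomb repressive complex 2 (PRC2), and Ring1, Rnf2, Bmi1 and Phc2 of Polycomb repressive complex 1 (PRC1). They were chosen by gene symbol, with earlier results of these data known, and all 10 were found among the 24421 symbols of the count matrix. B16F10 is a metastatic melanoma line of C57BL/6 mice. Cells of 2 libraries (shControl 1 and 2) had been transduced with a lentivirus made from an empty control plasmid. Those of the other 2 (shLmna 1 and 2) had received a lentivirus for a single short hairpin RNA (shRNA) directed at Lmna, which encodes the A-type lamins, lamin A and lamin C. Both lines were selected in puromycin and expanded as stable populations, so the comparison includes any general effect of carrying a hairpin. RNA was profiled by bulk MARS-seq, which primes at the poly(A) tail and counts the 3′ ends of transcripts. Library totals ran from 2494880 to 3808843 counts.

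Polycomb complexes keep developmental genes silent. PRC2 methylates lysine 27 of histone H3 through its catalytic subunit EZH2 or the paralog EZH1, which is active only in a core with SUZ12 and EED. RBBP4 and RBBP7 are interchangeable histone-binding subunits, and JARID2 is an accessory subunit that helps to recruit the complex. PRC1 ubiquitinates histone H2A. Its ligase is RING1 (RING1A) or RNF2 (RING1B), paired with 1 PCGF protein such as BMI1 (PCGF4), and PHC2 is a polyhomeotic subunit of canonical PRC1 that can polymerize. In melanocytes and melanoma, EZH2 is the best studied member.

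Lamin A/C downregulation went with lower transcripts of 3 of the 10 subunits, Suz12 and Eed of PRC2 and Bmi1 of PRC1, whereas no subunit was called higher. The pooled ratio of counts, scaled to library size, was 51.8 for Bmi1, 13.5 for Suz12 and 2.45 for Eed, shControl over shLmna. Ezh2, Rbbp4, Rbbp7, Jarid2, Ring1 and Phc2 did not pass the test, and Rnf2, with most of its counts in 1 library, did not pass the filter on low counts. Both complexes therefore included called and uncalled subunits. In bulk RNA, fewer cells with a transcript and less of it per cell cannot be told apart. Of the 9 tested members 3 were called lower at an adjusted p under 0.05, where 9.74% of all 9150 tested genes were. The same 3 passed the stricter limits of the study (also a log2 fold change over 1 in size and a mean normalized count over 5), which 5.88% of tested genes passed as lower. At an adjusted p under 0.05, 50% of tested genes with a 3′ end of 34% GC or less were lower. Suz12 and Bmi1 were in that band. In the band of Eed, from 34% to 42%, 14.85% were. For higher calls the member count was 0 under both rules, against 5.48% and 1.76% of tested genes. At an unadjusted p under 0.05 there were 4 members, the fourth being Jarid2, which was higher, beside 2750 of the 9150 tested genes. DESeq2 called the same 3 as lower and 0 as higher. The median log2 fold change was -0.27 over the 6 PRC2 subunits, -0.26 over the 3 tested PRC1 subunits and -0.0011 over all tested genes.

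**Figure D1:**
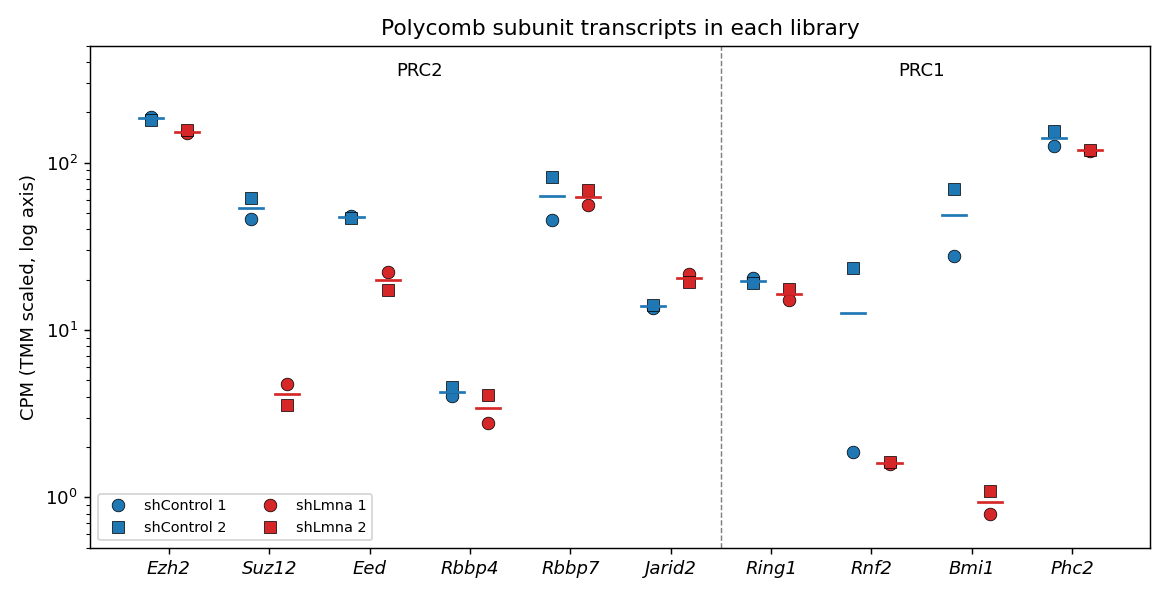
CPM (each count divided by the TMM-scaled library total, log axis) of the 10 Polycomb subunits in each of the 4 libraries, with blue for shControl, red for shLmna and a bar at the mean of each pair. Suz12, Eed and Bmi1 lie well apart between groups, the shControl libraries differ 12.7-fold for Rnf2, and the points of Rbbp4 and Rbbp7 overlap.

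The promoters of the called subunits and of Ezh2, whose transcript did not pass the test, are shown so that the genes that fell can be compared at sequence level. Each is the 300 bases from 250 before to 50 after the RefSeq start (GRCm38.p6), read 5′ to 3′ on the strand of the gene: Bmi1 at chr2:18676768-18677067 (plus), Suz12 at chr11:79992856-79993155 (plus), Eed at chr7:89980927-89981226 (minus) and Ezh2 at chr6:47594981-47595280 (minus). Capitals mark 3 motifs found on either strand. The first is the GC box, spelled GGGCGG, copies of which may overlap. The second is the CCAAT box, named by its letters. The third is the E-box, for which only the form CACGTG was searched.
Bmi1: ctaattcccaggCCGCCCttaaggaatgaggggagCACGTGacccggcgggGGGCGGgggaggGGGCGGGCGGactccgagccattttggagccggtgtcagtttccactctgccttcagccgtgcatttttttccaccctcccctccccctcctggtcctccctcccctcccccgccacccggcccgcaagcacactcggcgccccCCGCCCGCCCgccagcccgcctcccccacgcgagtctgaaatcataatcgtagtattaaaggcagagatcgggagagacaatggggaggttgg
Suz12: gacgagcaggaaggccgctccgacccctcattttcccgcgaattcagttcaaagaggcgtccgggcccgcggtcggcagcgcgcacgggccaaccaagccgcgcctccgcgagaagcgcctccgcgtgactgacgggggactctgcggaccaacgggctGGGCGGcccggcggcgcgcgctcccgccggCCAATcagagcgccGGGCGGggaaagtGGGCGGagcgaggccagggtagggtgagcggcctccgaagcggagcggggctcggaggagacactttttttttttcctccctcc
Eed: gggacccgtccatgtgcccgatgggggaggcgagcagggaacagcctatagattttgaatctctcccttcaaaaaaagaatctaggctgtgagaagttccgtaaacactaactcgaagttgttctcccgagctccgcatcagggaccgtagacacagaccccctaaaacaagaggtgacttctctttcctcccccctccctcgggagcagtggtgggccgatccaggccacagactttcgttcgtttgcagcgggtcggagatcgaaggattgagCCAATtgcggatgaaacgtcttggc
Ezh2: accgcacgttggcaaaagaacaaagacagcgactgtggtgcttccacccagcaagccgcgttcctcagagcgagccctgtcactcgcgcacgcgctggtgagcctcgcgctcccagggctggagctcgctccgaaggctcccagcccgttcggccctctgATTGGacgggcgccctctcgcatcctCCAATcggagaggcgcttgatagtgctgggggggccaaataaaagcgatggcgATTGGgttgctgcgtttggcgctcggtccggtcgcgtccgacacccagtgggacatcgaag

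The called subunits had no motif of these 3 in common. Bmi1 had 6 GC boxes and 1 E-box, Suz12 had 3 GC boxes and 1 CCAAT box, and Eed had 1 CCAAT box alone. Ezh2 had 3 CCAAT boxes. GC boxes were not particular to the called subunits. Among members not printed, Rbbp7 had 4, Ring1 had 3, Rbbp4 and Rnf2 had 2 each and Jarid2 had 1. Phc2 had 0 to 6, depending on the start. Over the 32851 RefSeq promoters of this length, 35.7% held a GC box, 37.4% a CCAAT box and 7.15% an E-box. A TATA box (TATAAA, either strand) was in none of the 4 sequences, and 13.6% of all promoters held one. The GC content was 66.3% for Bmi1, 71.0% for Suz12, 54.7% for Eed and 64.3% for Ezh2, against a median of 52.7%. The number of CpG dinucleotides was 23, 41, 17 and 31 in the same order, against a median of 7. These are matches to letters, and binding was not measured.

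Lmna was examined as a check of the labels. Its transcripts numbered 2826 and 2684 in the controls and 331 and 480 in the knockdown libraries, a log2 fold change of -2.61. The summed level of 7 melanocyte markers was 20117 to 24602 CPM in the 4 libraries, although Tyr itself had only 1 to 7 counts. Of the 6 tested markers 1 was called lower in shLmna, Sox10 (log2 fold change -0.89), and 2 were called higher, Pmel (0.41) and Mlana (0.51). Over all tested genes, 9.74% were called lower and 5.48% higher. The summed level of 11 markers of other cells was 7.76 and 9.91 CPM in shControl and 1.58 and 5.45 CPM in shLmna, with Ptprc, Cd3e, Cdh5, Epcam and Dcn at 0 counts in all 4.

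Among the core of PRC2, Suz12 showed the larger change. Suz12 encodes the zinc finger scaffold of the complex and spans bases 79993106 to 80034123 of chromosome 11 (GRCm38, plus strand, 16 exons). It had 148 and 231 counts in shControl 1 and 2, and 12 and 13 in shLmna 1 and 2. Both knockdown libraries were far below both controls, and the 2 knockdown libraries were close to each other. The level was 53.8 ± 11.3 CPM (SD, n = 2) in shControl and 4.14 ± 0.852 CPM in shLmna. Suz12 fell by 3.72 on the log2 scale (SE 0.28, 95% interval -4.35 to -3.09, edgeR adjusted p = 2.81e-05). The pooled counts gave a ratio of 13.5, with an exact interval of 9.0 to 21.1 that covers counting error only.

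Eed encodes the WD40 subunit that binds methylated lysine 27 and stimulates the enzyme, and it lies at 89954654 to 89980983 on the minus strand of chromosome 7 (12 exons). Counts for Eed were 155 and 175 in shControl against 56 and 64 in shLmna. The control libraries were close in CPM, at 48.0 and 46.9, and the knockdown libraries, at 22.1 and 17.4, lay below both. Eed fell by 1.27 on the log2 scale (SE 0.20, 95% interval -1.72 to -0.83, edgeR adjusted p = 0.00248). Relative to the control mean Eed fell by 58.6%. Without shLmna 2 the fold change was -1.08 and the adjusted p was 0.0536, so that the call was lost.

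Ezh2, the methyltransferase itself, was present at 184 ± 4.75 CPM in shControl and 154 ± 5.55 CPM in shLmna, from 606 and 676 against 379 and 579 counts. The groups did not overlap, with a ratio of means of 1.20, but the difference did not pass the test (log2 fold change -0.26, 95% interval -0.52 to 0.0023, edgeR adjusted p = 0.170). With limma on the batch-corrected values, 1 of the 13 alternatives, it was called (log2 difference -0.13, limma adjusted p = 0.0309). The interval of the main test leaves out a fall of the size seen for Suz12 or Eed. Within a library the log2 ratio of Suz12 to Ezh2 counts was -2.03 and -1.55 in shControl and -4.92 and -5.42 in shLmna. The ratio was lower in both knockdown libraries, with a mean difference of -3.39, and with 2 libraries a group the exact two-sided permutation test gave p = 0.333, the smallest it allows.

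The histone-binding pair differed in counts, which are not corrected for how well each transcript end is captured. Neither gene passed the test between groups. Rbbp4 had only 13 and 17 counts in shControl against 7 and 15 in shLmna, so the log2 fold change of -0.29 had a wide interval of -1.27 to 0.69. Rbbp7 had 147 and 306 counts in shControl against 141 and 251 in shLmna. On the CPM scale this was 45.5 and 81.9 against 55.8 and 68.4, so both knockdown libraries fell between the 2 controls (log2 fold change -0.038, 95% interval -0.58 to 0.51). Its direction turned with the control library that was left out, from -0.39 without shControl 1 to 0.45 without shControl 2. In the counted windows of the genes, 9.49% of the 31-base words of Rbbp7 also occur in Gm6382 and 3.3% of those of Rbbp4 in other genes. An antisense neighbour overlapped each, Txlng with 6, 7, 18 and 17 counts for Rbbp7 and Sync with 1 count in all for Rbbp4, and the strand setting of the counting was not given in the sources used here.

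Jarid2 was the one member above its controls in both knockdown libraries. It had 44 and 53 counts in shControl against 55 and 71 in shLmna, or 13.6 and 14.2 CPM against 21.8 and 19.3 CPM. The difference did not pass the test (log2 fold change 0.56, 95% interval 0.042 to 1.07, edgeR adjusted p = 0.137), although it was called with limma on the batch-corrected values (limma adjusted p = 0.0146). The gene has 3 annotated 3′ ends over 1535 bases, and reads of a second end may lie outside the counted window.

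Among PRC1 subunits the large change was in Bmi1. Bmi1 encodes the PCGF4 partner of the ligase, known as a repressor of the Ink4a/Arf locus, and spans 18677018 to 18686629 of chromosome 2 (plus strand, 10 exons). It had 89 and 260 counts in shControl against 2 and 4 in shLmna. The controls themselves differed 2.53-fold in CPM, at 27.6 and 69.6, yet the knockdown libraries, at 0.791 and 1.09, were far below the lower control. Bmi1 fell by 5.61 on the log2 scale (SE 0.60, 95% interval -6.94 to -4.27, edgeR adjusted p = 0.000256). Since shLmna 1 had 2 counts and shLmna 2 had 4, the size of the fall is loosely set: the pooled ratio was 51.8 with a counting interval of 23.5 to 142. In the counted window 15.4% of the 31-base words also occur in Gm5946, a gene that the matrix used here does not list.

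The ligases Ring1 and Rnf2 could not be compared on equal terms. Ring1 had 66 and 71 counts in shControl against 38 and 65 in shLmna, at 19.7 ± 1.01 and 16.4 ± 1.90 CPM. The groups did not overlap, but the difference did not pass the test (log2 fold change -0.26, 95% interval -0.77 to 0.25, edgeR adjusted p = 0.493).

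Rnf2 had 6 and 88 counts in shControl against 4 and 6 in shLmna. Its 3 low libraries lay between 1.58 and 1.86 CPM and shControl 2 alone was at 23.6 CPM. The 2 control libraries thus differed 12.7-fold for Rnf2. A ratio of over 5 in the same direction was seen in 59 of 9137 tested genes with counts in both controls (0.646%), and a ratio of over 10 in 28. The tested genes had all passed the filter on low counts, which removes genes seen mainly in 1 library. These shares therefore cannot tell how rare such a pattern is among genes like Rnf2. Rnf2 itself did not pass that filter and has no call in the main test. Its outcome depended on 1 library and on the fit. With no filter the log2 fold change was -2.97 (SE 0.44, edgeR adjusted p = 7.56e-10), and with DESeq2 -2.98 (SE 1.04, adjusted p = 0.0525). The SE with no filter was small beside the 12.7-fold difference of the controls. Without shLmna 1 the log2 fold change was -2.95. Without shControl 1, leaving the high library as the only control, it was -3.84. Against shControl 1 by itself, 6 counts stood beside 4 and 6.

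Phc2 was among the more strongly counted members, with 408 and 578 counts in shControl against 298 and 439 in shLmna. Both knockdown libraries, at 118 and 120 CPM, were below the controls at 126 and 155 CPM, and the log2 fold change of -0.24 did not pass the test (95% interval -0.55 to 0.062, edgeR adjusted p = 0.268). Of the 9 tested members, 6 had both knockdown libraries below both controls, where 30.6% of all tested genes did, and 1 had both above, where 29.5% did. The summed level of the PRC2 subunits was 345 and 390 CPM in shControl and 257 and 271 CPM in shLmna, and that of the PRC1 subunits 176 and 267 against 135 and 140 CPM. Phc2, which was not called, was the largest part of the PRC1 sum in each library. Bmi1 made up 27.6 and 69.6 CPM of it in shControl against 0.791 and 1.09 in shLmna. Rnf2 made up 1.86 and 23.6 CPM against 1.58 and 1.63.

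Paralogs that can take the place of a member were compared with it. Ezh1, the second methyltransferase of PRC2, had 138 and 153 counts in shControl against 137 and 143 in shLmna (log2 fold change 0.14, 95% interval -0.29 to 0.57). The log2 ratio of Ezh2 to Ezh1 was 2.13 and 2.14 in shControl against 1.46 and 2.01 in shLmna, with a mean difference of -0.40. The PCGF paralogs of Bmi1 were all tested and none was called: Pcgf1 was at 0.11, Pcgf2 at -0.38, Pcgf3 at 0.55, Pcgf5 at 0.41 and Pcgf6 at 0.034 on the log2 scale. Pcgf2 (Mel-18), the closest relative of Bmi1, had 98 and 158 counts in shControl against 80 and 91 in shLmna. The log2 ratio of Bmi1 to Pcgf2 was therefore -0.14 and 0.72 in the controls, against -5.01 and -4.35 in the knockdown libraries. In control cells the pair had like counts, and in knockdown cells Bmi1 was the rare one. These ratios are of 3′ counts with 0.5 added and are not corrected for how well each 3′ end is captured.

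Of the polyhomeotic paralogs, Phc1 had 162 and 262 counts in shControl against 103 and 178 in shLmna (log2 fold change -0.43, edgeR adjusted p = 0.173), and Phc3 had 128 and 87 against 139 and 152 (0.61, edgeR adjusted p = 0.142). Neither passed the test. Phc1 was called under 3 of the 13 alternatives and Phc3 under 5. Without shControl 1 they were at -0.64 and 1.04 and each was called (edgeR adjusted p = 0.0111 and 0.000875), and without shControl 2 they were at -0.16 and 0.26. The ratio of Phc2 to Phc3 was lower in both knockdown libraries, with a mean difference of -0.88 on the log2 scale, while that of Phc2 to Phc1 overlapped between groups. In all 8 pairs were compared and 5 did not overlap between groups, where 30.6% of single tested genes did not overlap as lower and 29.5% as higher, and none could go below an exact p of 0.333.

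**Figure D2:**
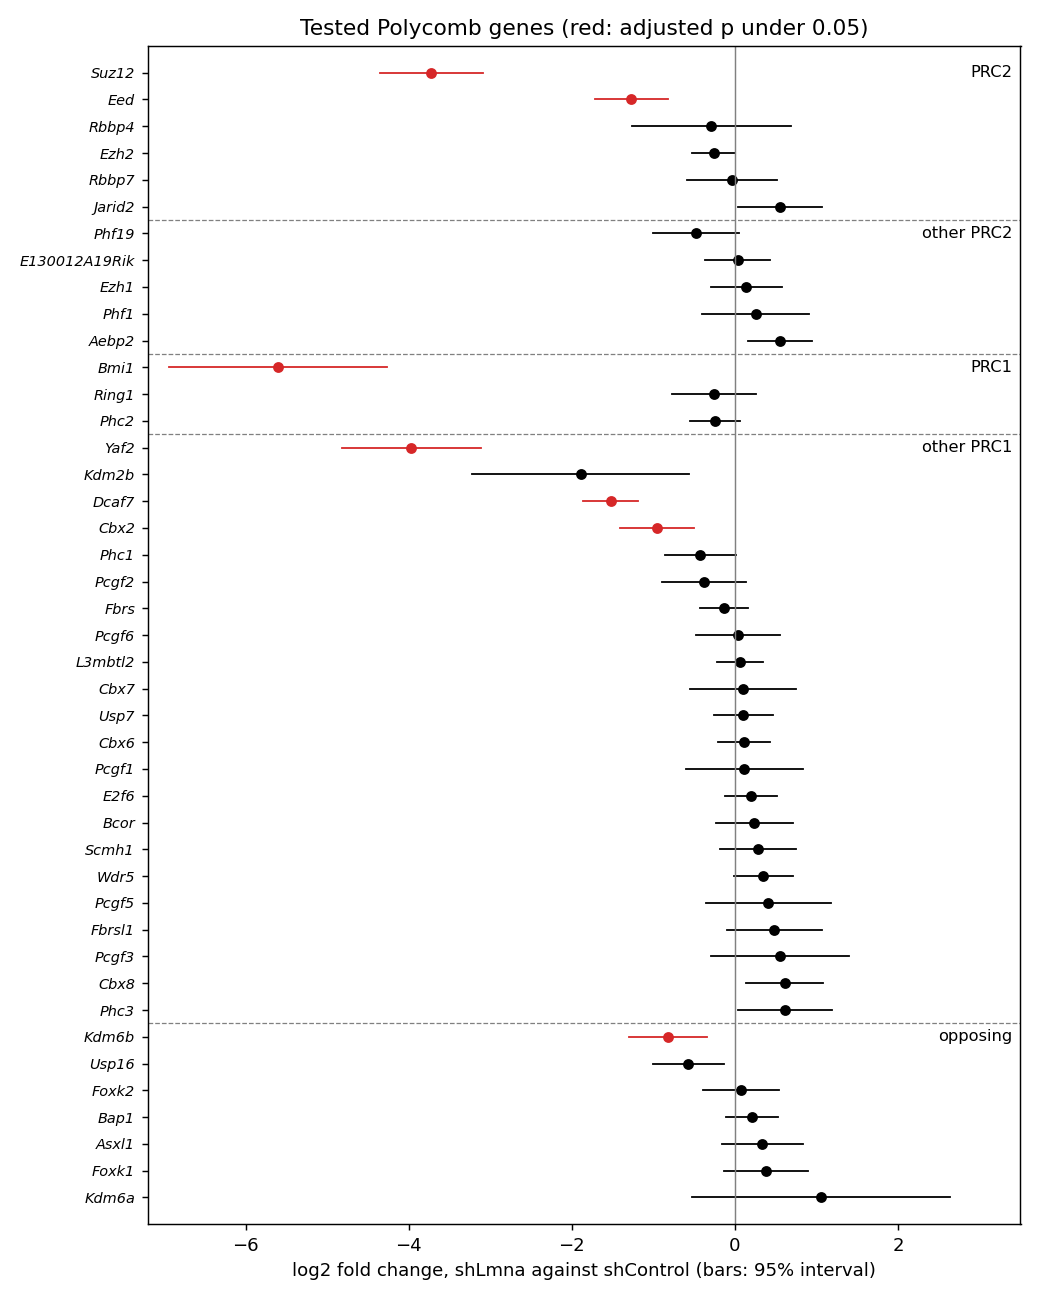
Log2 fold change of shLmna against shControl (horizontal axis) with its 95% interval for each tested Polycomb gene, grouped by list, with red for an adjusted p under 0.05. Bmi1, Yaf2 and Suz12 lie farthest left, and most other subunits have intervals that cross 0.

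The other subunits of both complexes were read from lists in the same way. Of the other PRC2 subunits, 5 of the 8 in the matrix were tested and 0 called with edgeR. Of all tested genes 9.74% were called lower and 5.48% higher. DESeq2 also called 0 of these subunits, and 1 passed an unadjusted p under 0.05. That one was Aebp2, the partner of Jarid2 in the same PRC2 variant, at 120 and 121 counts in shControl against 118 and 200 in shLmna (log2 fold change 0.55, edgeR adjusted p = 0.0657). Phf1 and Phf19, Polycomb-like recruiters, were at 0.25 and -0.47. The third of them, Mtf2, had 0, 28, 0 and 0 counts in shControl 1 and 2 and shLmna 1 and 2, so that, like Rnf2, it was seen in shControl 2 and scarcely elsewhere. The median log2 fold change of the 5 was 0.14.

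Of the other PRC1 subunits, 22 of 29 were tested, 3 were called lower and 0 higher, beside 9.74% and 5.48% of all tested genes. Yaf2, which with Rybp forms the alternative to CBX proteins in variant PRC1, had 132 and 203 counts in shControl against 3 and 16 in shLmna, and fell by 3.97 on the log2 scale (95% interval -4.82 to -3.12, edgeR adjusted p = 0.000128). The size depended on the knockdown library, with -3.44 without shLmna 1 and -5.27 without shLmna 2. Its paralog Rybp was all but undetected, with 1 count over the 4 libraries. Dcaf7, a WD40 protein found in PRC1 that holds PCGF3 or PCGF5, had 282 and 354 counts in shControl against 76 and 121 in shLmna (log2 fold change -1.52, edgeR adjusted p = 0.000160). Cbx2, a chromodomain reader of methylated lysine 27, had 139 and 220 against 65 and 99 counts (log2 fold change -0.95, edgeR adjusted p = 0.0123), and lost its call without shLmna 1 or shLmna 2, with edgeR adjusted p of 0.0914 and 0.103. The median log2 fold change over the 22 genes was 0.10. Bmi1, Suz12 and Dcaf7 also belong to a list of nuclear body genes that the study drew from these libraries, so their direction there is no separate evidence.

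Enzymes that remove the Polycomb marks showed no shared direction. Kdm6b, a demethylase of lysine 27, had 104 and 107 counts in shControl against 45 and 61 in shLmna and was lower (log2 fold change -0.82, edgeR adjusted p = 0.0286), but DESeq2 gave an adjusted p of 0.229. Without shLmna 1 or shLmna 2 the edgeR adjusted p was 0.114 and 0.177. Its paralog Kdm6a had 1 and 23 counts in shControl against 16 and 28 in shLmna, and the log2 fold change of 1.05 did not pass the test (95% interval -0.53 to 2.64). Without shControl 2, which leaves the control with 1 count, it became 4.34 (edgeR adjusted p = 0.00128). Bap1, the deubiquitinase that reverses PRC1 action, was at 0.21 (95% interval -0.11 to 0.53). Of the 7 tested genes of this list 1 was called lower and 0 higher, beside 9.74% and 5.48% of all tested genes.

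Genes known from other cells as Polycomb targets mostly had no or few counts in all libraries. Of 62 listed, 25 had no count, 23 had counts below the filter and 14 were tested, with a median log2 fold change of 0.085. Hoxb9 was the gene called higher among the 14, where 5.48% of all tested genes were. It had 47 and 49 counts in shControl against 58 and 90 in shLmna (log2 fold change 0.78, edgeR adjusted p = 0.0438, DESeq2 0.358), and it kept its edgeR call under 7 of the 13 alternatives. The call was lost with the GC correction (edgeR adjusted p = 0.0608) and without shControl 2, shLmna 1 or shLmna 2 (0.113, 0.130 and 0.188). Cdkn2a, the Ink4a/Arf gene, had 0 counts in each of the 4 libraries, and 0 allows up to 3 counts in a library. Why it had none, including whether the gene is intact in this line, was not tested.

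The base composition of the counted 3′ end moved with these results. Of all tested genes, 96.26% had a value for the GC content of the last 1000 transcript bases. Among the 316 genes at 34% GC or less, 50% were called lower, 5.38% were called higher and the median log2 fold change was -1.23. Both members with the largest changes were in this band, Suz12 at 32.3% and Bmi1 at 32.4%, and so were Yaf2 at 32.8% and the untested Rnf2 at 32.9%. Within the band 71 genes lay lower than Suz12 and 12 lower than Bmi1. Falls as large as that of Suz12 were thus frequent among genes with such 3′ ends, and falls as large as that of Bmi1 were few.

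In the band from 34% to 42%, 14.85% of 2195 genes were called lower and the median was 0.0086. It held Eed at 37.7%, Ezh2, Rbbp4, Rbbp7 and Jarid2. Above 50% GC lay Ring1 and Phc2, with 6.94% of 3228 genes called lower. A smooth trend with GC content was also fitted over the tested genes and taken out. The log2 fold change went from -3.72 to -3.37 for Suz12, -5.61 to -5.25 for Bmi1 and -1.27 to -1.26 for Eed. Each kept its call (edgeR adjusted p = 4.38e-05, 0.000270 and 0.00324). For Suz12 and Bmi1 the shift was small beside the median of -1.23 in their band. The fit may therefore have left part of the trend in place, and a kept call does not set these genes apart from their band. The 2 control libraries also differed in the low band, with a median log2 ratio of 0.34 of shControl 2 over shControl 1. Whether base composition acted on the counts themselves was not tested.

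**Figure D3:**
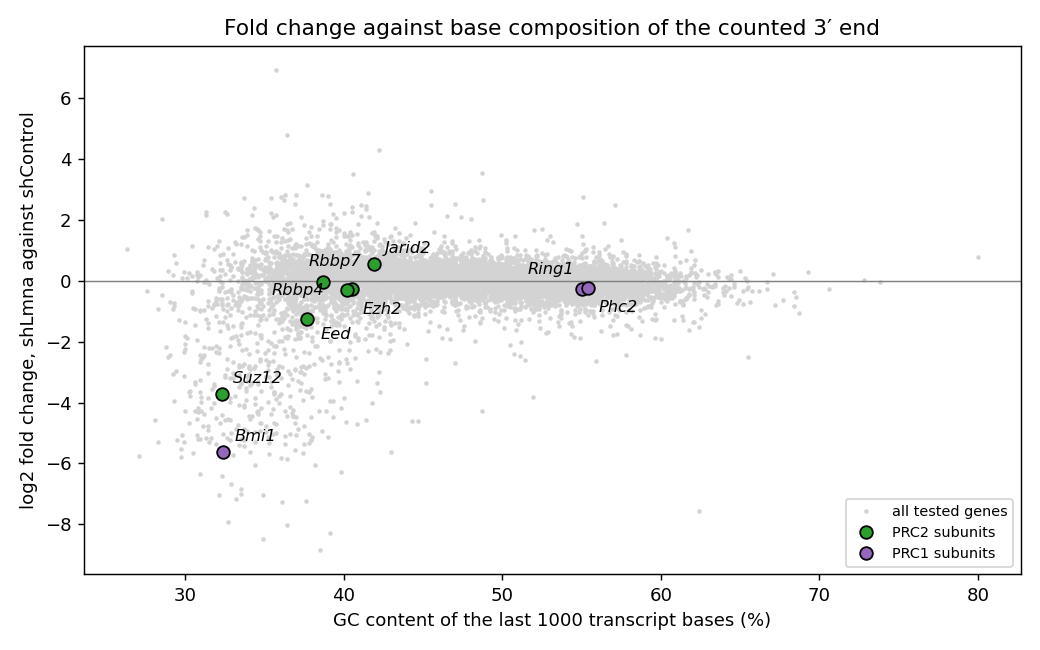
Log2 fold change of shLmna against shControl (vertical axis) against GC content of the last 1000 transcript bases in percent (horizontal axis) for all tested genes in grey, with PRC2 subunits in green and PRC1 subunits in purple. Suz12 and Bmi1 lie at the AT-rich end, where the cloud of genes extends far below 0, while Ring1 and Phc2 lie in its narrow part near 55%.

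The calls of Suz12 and Bmi1 held under all 13 alternatives, and that of Eed under 12. In 4 of the 13, 1 group had a single library and so no spread of its own. Leaving out 1 library at a time moved Suz12 from -3.92 to -3.48, Bmi1 from -6.11 to -4.78 and Eed from -1.44 to -1.08 on the log2 scale. In the authors' batch-corrected log2 values the differences were smaller, at -0.80 for Suz12, -0.90 for Bmi1 and -0.37 for Eed. Other genes were also smaller there, such as Lmna at -1.54 against -2.61 and Ezh2 at -0.13 against -0.26. A difference between the transduced lines that has another source cannot be told apart from that of the hairpin, and nothing in these libraries measures the proteins or the histone marks. The study itself reports, from Western blots of its knockdown melanoma cells, that the histone mark set by PRC2 was unchanged.

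**Figure D4:**
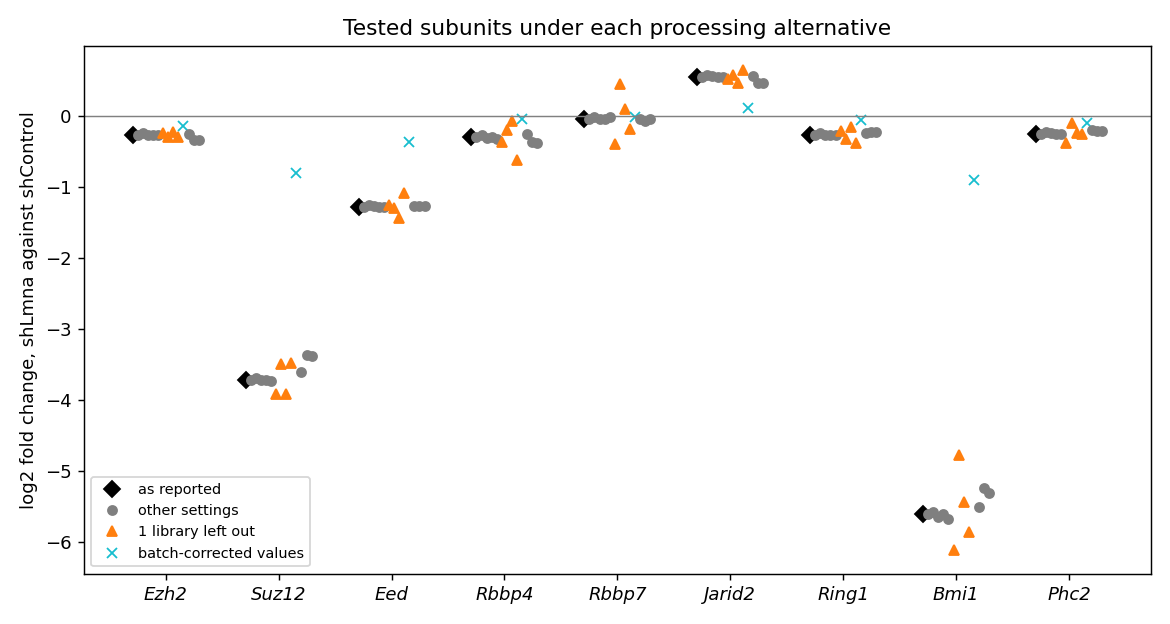
Log2 fold change of shLmna against shControl (vertical axis) of the 9 tested subunits as reported (black), with 1 library left out (orange), from batch-corrected values (cyan) and under the other settings (grey). Suz12, Eed and Bmi1 stay below 0 throughout, and Rbbp7 crosses 0 with the library left out.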

How the data were processed

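Sample titles gave the group and replicate number (n = 2 per group). According to the study's methods, the authors trimmed reads with Cutadapt, aligned them with STAR 2.4.2a to mm10 and counted them with HTSeq over a window from 1000 bases before to 100 bases after the 3′ end of each RefSeq gene. The authors deposited raw counts per gene, on which the main test was run. The study's methods describe a count of UMIs once duplicates had been marked. Whether the deposited raw counts come before or after that step is not stated, and the counting intervals take each raw count as a separate molecule. Another deposited file gave signal values (counts divided by a DESeq2 size factor), from which 100% of values were recovered as whole counts within a tolerance of 0.1. It also gave the authors' p-values and adjusted p-values, which were not used. Over the genes in both files, the raw counts summed to 1.08 to 1.09 times the recovered counts, depending on the library. The raw count was below the recovered count for 0 genes in each library. The last file gave log2 values after batch correction by the authors with ComBat, with no batch named.

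The main test was the edgeR 4.0.16 quasi-likelihood test on counts (R 4.3.3, TMM scaling, filterByExpr, group as the one term, two-sided), with p-values adjusted by Benjamini-Hochberg over 9150 genes. DESeq2 1.42.0 and limma 3.58.1 on the log2 values served among 13 alternatives. CPM are TMM scaled and given as mean ± SD. GC content, shared 31-base words and overlaps came from GENCODE models on GRCm38. Nothing says that replicate libraries are of separate cultures, so p-values can at most measure the spread between these libraries, which may be technical. A fit with 1 library left out has no spread in the group with a single library. Its p-values therefore do not measure the spread of both groups.

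Members and lists were chosen with earlier results of these data known. Genes named are the members, Lmna, their paralogs, Bap1, Kdm6a, Kdm6b and listed genes past the adjusted test. Aebp2, Phf1, Phf19, Mtf2, Rybp and Cdkn2a were named after their values were seen, as were markers and genes that overlap or share sequence with a member. The result of 1 further listed gene is not reported here.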

Additional observations from a re-analysis of the deposited data

How the results depend on the processing

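Suz12 and Bmi1 kept their direction and call under all 13 alternatives and Eed under 12, and the number of members called lower was 3 as reported and 2 to 4 with 1 library left out, the fourth being Rnf2 without shControl 1. With limma on batch-corrected values 0 members passed the 3 limits as lower, since fold changes are smaller there, while at the adjusted p alone 4 were called lower, the fourth being Ezh2, and 1 higher, Jarid2. Other Polycomb genes called lower numbered 5 as reported, 3 with DESeq2, 11 with no filter, 8 with a replicate block, 9 with limma, 9 with the block and a GC correction and 2 to 13 with 1 library left out. Those called higher numbered 1 as reported, 0 with DESeq2, 3 with no filter, 4 with the block, 10 with limma, 2 with recovered counts, 3 with the block and GC correction and 0 to 4 with 1 library left out. Over all genes, 891 were lower as reported, 589 with DESeq2, 1988 with limma and 414 to 1329 with 1 library left out, and 501 were higher as reported, 217 with DESeq2, 852 with the block, 1793 with limma and 89 to 775 with 1 library left out. The numbers pair the samples by name only: the correlation of their deviations from the group means was 0.015 over 9150 genes, and the block changed no call of a tested member. Direction turned for genes near 0: Rbbp7 ran from -0.39 to 0.45, Ezh1 from -0.10 to 0.39, Pcgf1 from -0.26 to 0.38 and Pcgf6 from -0.085 to 0.17 with 1 library left out, and Pcgf6 was at -0.025 with the GC correction and -0.027 with the block and GC correction. The cause was not tested. Depth limits Rbbp4, Rnf2 and the size of the fall of Bmi1, where 1 count in shLmna is worth 0.272 to 0.396 CPM.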
